A study of Mus musculus with 9 samples.

Results

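Type I interferon-stimulated genes, a set of 33 genes that cells switch on when they sense type I interferon, were followed in the abdominal aorta of mice without mature B cells. The genes are a list of known members of the response, and each was found on the arrays through the gene name of its probes, with the brightest kept probe standing for the gene. All 33 had a probe, out of 23689 genes named on the array, and 32 passed the filter on dim probes, out of 16444 genes tested. The 9 samples came from uMT mice on the C57BL/6 background, in which disruption of the IgM heavy chain gene stops B cell development, so every group lacked mature B cells. The 3 sham samples had physiological saline laid around the aorta, the 3 CaCl2 samples had 0.5 M CaCl2 laid there to induce an aneurysm, and the 3 samples of CaCl2 plus IgG had the same CaCl2 and mouse polyclonal IgG injected into the peritoneum. Aortas were taken 7 days after CaCl2. The sources used here do not state when sham aortas were taken, how old the mice were or how much IgG they received. The study set out to see what immunoglobulins do in this aneurysm model, so the comparisons were CaCl2 with sham, CaCl2 plus IgG with sham, and CaCl2 plus IgG with CaCl2.

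Type I interferons, the interferon-alpha and interferon-beta family, bind a receptor made of IFNAR1 and IFNAR2 that carries the kinases JAK1 and TYK2. The kinases activate STAT2, which joins IRF9 in the complex ISGF3, and this complex binds a DNA element with repeated GAAA in the promoters of its target genes. Many of the targets are antiviral proteins, others sense foreign or misplaced nucleic acid, and some, such as IRF7, feed back into interferon production. In injured tissue such genes are expressed by infiltrating leukocytes and by resident cells of the vessel wall.

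The promoters of the set were searched for this element, taken as GAAA, any 2 bases and GAAA on either strand, in the 250 bases before the annotated start (RefSeq sequences, GRCm38.p6). Of the 33 genes 24 were in the promoter table, and 9 of these held a match, which is 37.5% (95% Wilson interval 21.2% to 57.3%, counting error only). Over all 27025 genes of the table, 936 held one, or 3.46%. The stretches around the matches are shown because the element is the one that ISGF3 is known to bind, and the other 15 genes of the table hold none in this window. Each is written 5′ to 3′ along the strand of its gene, with matches in capitals and overlapping matches run together, and TTTC, any 2 bases and TTTC is the same element on the other strand. They lie at chr4:156200850-156200921 (Isg15, minus strand), chr19:34640760-34640838 (Ifit1, plus), chr19:34583348-34583441 (Ifit3, plus), chr5:120907526-120907570 (Oas1a, minus), chr5:120887614-120887656 (Oas1g, minus), chr5:120777700-120777759 (Oas3, minus), chr8:71537562-71537627 (Bst2, minus), chr12:26456538-26456597 (Rsad2, minus) and chr10:128270251-128270310 (Stat2, plus).
Isg15: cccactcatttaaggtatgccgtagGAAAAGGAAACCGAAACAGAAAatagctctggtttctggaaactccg
Ifit1: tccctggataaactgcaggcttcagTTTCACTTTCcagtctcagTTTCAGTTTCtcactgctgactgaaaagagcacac
Ifit3: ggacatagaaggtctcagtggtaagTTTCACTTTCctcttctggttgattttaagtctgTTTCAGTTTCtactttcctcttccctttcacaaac
Oas1a: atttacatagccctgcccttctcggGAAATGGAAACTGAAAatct
Oas1g: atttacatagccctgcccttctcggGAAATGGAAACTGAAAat
Oas3: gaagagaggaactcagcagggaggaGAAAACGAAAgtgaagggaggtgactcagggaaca
Bst2: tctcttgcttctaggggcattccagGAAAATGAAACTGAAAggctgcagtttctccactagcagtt
Rsad2: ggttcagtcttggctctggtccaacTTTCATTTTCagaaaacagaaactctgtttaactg
Stat2: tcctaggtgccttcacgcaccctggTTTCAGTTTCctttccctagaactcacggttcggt
The first match began 78 bases before the start in Isg15, which held 3 overlapping matches, and 222 bases before it in Stat2, the farthest of the 9. A match is a description of the letters and not a measured binding site.

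Each sample was hybridised to 1 array of 55681 probes, and levels are given in log2 units as the distance from the 75th percentile of all signals on that array, so 0 is the level of that percentile. The share of probes well above background ran from 54.9% to 59.9%, and 0 spots were saturated. That percentile was a signal of 266 to 301 for sham, 379 to 495 for CaCl2, and 448, 455 and 270 for CaCl2 plus IgG. Replicate 3 of CaCl2 plus IgG stood apart, with correlations across genes of 0.957 and 0.961 to the other arrays of its group, against 0.979 to 0.990 for other pairs within a group, so counts and medians with IgG, and the changes of leading genes, are also given without it. The 10 smooth muscle markers, which check the labelled tissue, were well above background in sham aortas, with median levels of 6.29 to 6.62. Nothing in the labels ties each replicate to its own mouse, so the p-values speak only to the spread among these samples, part of which may be technical, and 3 arrays per group limit the precision.

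CaCl2 aortas had higher levels of most of the set than sham aortas. Of 32 genes 24 were higher at an adjusted p under 0.05 (limma, adjusted over all genes tested), 0 were lower and 8 did not pass. Oas3 passed the filter only through the groups where it was high, so it had to differ, and without it 23 of 31 were higher. Over all genes tested, 17.4% were higher by this test and 19% were lower. The median change of the 32 genes was 1.76 on the log2 scale, or 1.74 without Oas3, against -0.08 over all genes. Single changes ran from -0.04 for Trim25 to 4.23 for Bst2. Values of the 3 CaCl2 arrays all lay above those of the 3 sham arrays for 29 of the genes, against 24.7% of all genes. Oas3, which had to differ by the filter, is among the 29. The size of the change depends on what each array is scaled to. When arrays were instead scaled to their median, the median over all genes moved from -0.08 to 0.39 and that of the set to 2.23, and 77.2% of all calls were then higher, against 47.8%.

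**Figure D1:**
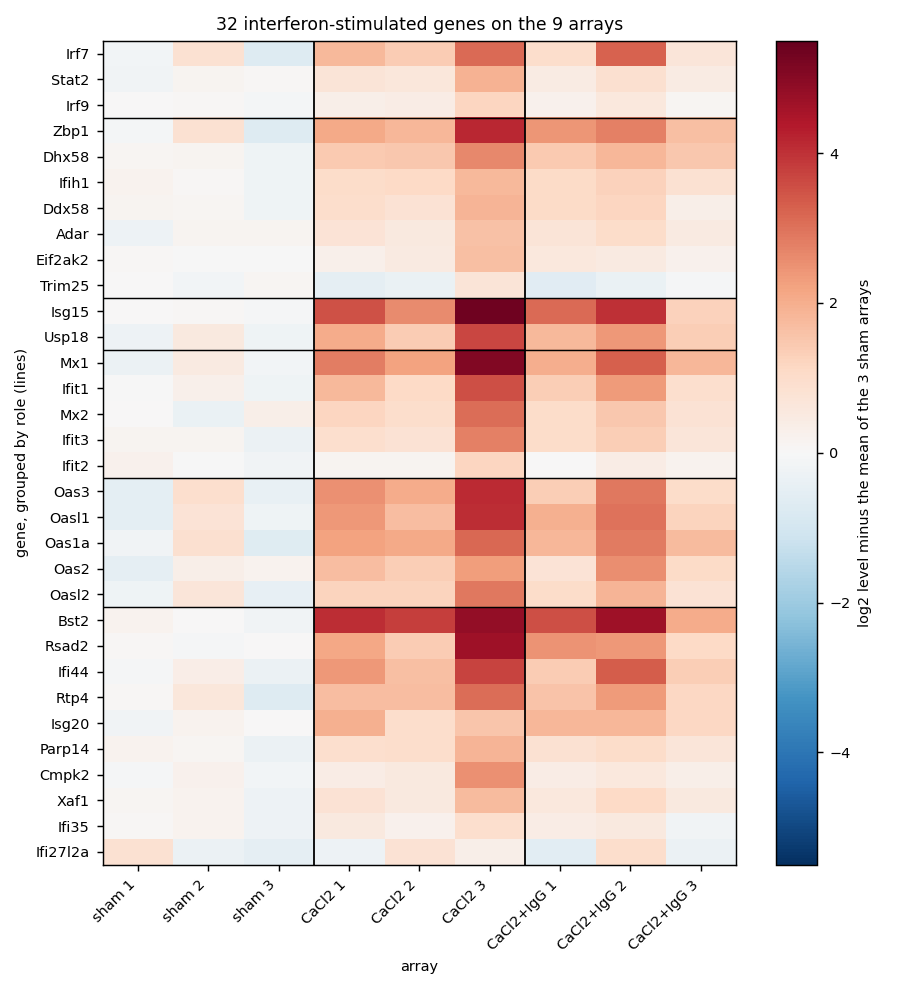
Level of each of the 32 genes (rows, grouped by role) on each of the 9 arrays (columns), as the log2 level minus the mean of the 3 sham arrays. Red is above the sham mean and blue below. Replicate 3 of CaCl2 is the highest array of its group for 30 of the 32 genes.

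The count rested in part on single sham arrays and on the place of an array on its slide. It was 14 without sham replicate 1, 17 without sham replicate 2 and 12 without sham replicate 3, against 14%, 13.7% and 13.1% of all genes higher. Without any other single array it was 20 to 25, against 12.7% to 19.9%. All arrays were on 1 slide but sham replicate 3, which was alone on a second slide. The 3 CaCl2 arrays and 1 array with IgG were in the first row of the shared slide, and sham replicate 3 was in the first row of its own. With the row as a block 13 genes passed, against 11.3% of all genes higher. No sham array shared both slide and row with a CaCl2 array, so the set's median change of 1.70 between the CaCl2 arrays and sham replicate 3 crosses slides. The genes that passed in every one of 20 alternatives, those without 1 array included, were the 10 genes Bst2, Dhx58, Ifih1, Isg15, Isg20, Mx1, Oas1a, Parp14, Rtp4 and Usp18.

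Among the 3 transcription factors of the response, 1 was higher with CaCl2, against 17.4% of all genes, and their median change was 1.08. Stat2, the partner of IRF9 in ISGF3, read 1.22, 1.56 and 1.47 in sham, then 2.10, 2.05 and 3.33 after CaCl2, then 1.86, 2.28 and 1.89 after CaCl2 plus IgG. Both CaCl2-treated groups lay above all sham values, and Stat2 was higher with CaCl2 by 1.08 ± 0.33 (SE, adjusted p = 0.0339). The call was lost without any 1 of the sham arrays and with the slide row as a block (adjusted p up to 0.103). Irf9, the DNA-binding part of ISGF3, read 2.39, 2.41 and 2.24 in sham, then 2.69, 2.77 and 3.54 after CaCl2, then 2.59, 2.92 and 2.47 after CaCl2 plus IgG. The groups did not overlap with sham, yet the difference of 0.65 ± 0.24 between CaCl2 and sham missed the threshold (adjusted p = 0.0588). Irf7, which drives interferon-alpha genes and is itself induced by interferon, read -2.49, -1.50 and -3.07 in sham, then -0.57, -0.95 and 0.75 after CaCl2, then -1.37, 0.87 and -1.70 after CaCl2 plus IgG. The Irf7 difference between CaCl2 and sham was large at 2.10 but had an SE of 0.74, and it too missed the threshold (adjusted p = 0.0556).

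Sensors of nucleic acid and their cofactors were next. Of 7 genes 5 were higher with CaCl2, against 17.4% of all genes, and 2 did not pass. Ifih1, which encodes the long double-stranded RNA sensor MDA5, read 0.18, 0.09 and -0.25 in sham, then 1.01, 1.09 and 1.80 after CaCl2, then 1.08, 1.25 and 0.84 after CaCl2 plus IgG. The sham values were well apart from the rest and close to each other, and Ifih1 was higher with CaCl2 by 1.29 ± 0.24 (SE, adjusted p = 0.0047). Ddx58, which encodes the RNA sensor RIG-I, read 1.34, 1.30 and 0.94 in sham, then 2.15, 2.00 and 3.05 after CaCl2, then 2.24, 2.35 and 1.53 after CaCl2 plus IgG, and it was higher with CaCl2 by 1.21 ± 0.32 (adjusted p = 0.0197; up to 0.074 over the alternatives, with the call lost by the slide row block and without sham replicate 3). A second probe of Ddx58 gave a smaller difference of 0.38. Dhx58, which encodes LGP2, a regulator of both sensors, was higher by 1.84 ± 0.31 (adjusted p = 0.0035).

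Zbp1 senses nucleic acid in the Z form and can start necroptosis. It read -1.77, -0.85 and -2.39 in sham, then 0.43, 0.18 and 2.48 after CaCl2, then 0.75, 1.12 and 0.00 after CaCl2 plus IgG. All 6 treated arrays lay above all sham arrays, and the difference between CaCl2 and sham was 2.70 ± 0.64 (SE, adjusted p = 0.0137; 0.0505 without sham replicate 3). Its second probe gave 5.59, with 0 of 3 sham arrays well above background. Adar encodes ADAR1, which edits double-stranded RNA and keeps it from triggering the sensors. It read 0.44, 0.87 and 0.86 in sham, then 1.47, 1.27 and 2.32 after CaCl2, then 1.42, 1.74 and 1.23 after CaCl2 plus IgG, with a difference between CaCl2 and sham of 0.96 ± 0.28 (adjusted p = 0.0303). Adar lost the call without any 1 of 5 arrays, namely the 3 sham arrays and CaCl2 replicates 1 and 3, and its adjusted p reached 0.12 over the alternatives, and its second probe gave a difference of 0.40. Eif2ak2, which encodes the kinase PKR, had a difference of 0.81 ± 0.32 that missed the threshold (adjusted p = 0.0775).

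Trim25, a ubiquitin ligase that acts on RIG-I, was the gene of the set whose change with CaCl2 was below 0. Its brighter probe, which was matched to an Ensembl transcript, read 4.02, 3.87 and 4.14 in sham, then 3.53, 3.63 and 4.73 after CaCl2, then 3.39, 3.66 and 3.92 after CaCl2 plus IgG. Values of all groups overlapped, and the difference was -0.04 ± 0.31 (SE, adjusted p = 0.925), but 0.43 with median scaling and 0.02 with normexp background correction. A second Trim25 probe, matched to the RefSeq transcript, gave 1.36, so the probes of this gene disagree. Of 10 genes with more than 1 kept probe, it was the 1 gene whose probes differed in sign between CaCl2 and sham.

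**Figure D2:**
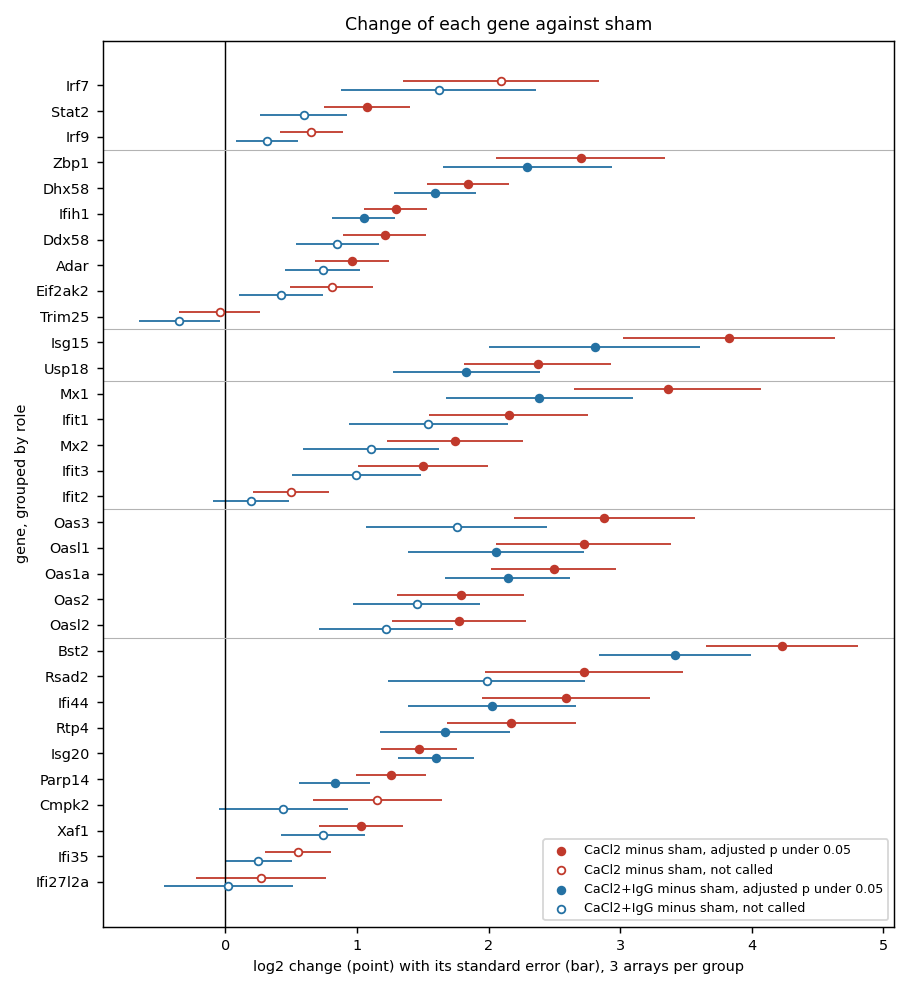
Log2 change of each of the 32 genes against sham (points) with its standard error (bars), for CaCl2 in red and CaCl2 plus IgG in blue, 3 arrays per group. Filled points have an adjusted p under 0.05: 24 genes for CaCl2 and 13 for CaCl2 plus IgG.

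Isg15 encodes a small ubiquitin-like protein that is attached to other proteins and also secreted, and Usp18 the protease that removes it and that also quiets the interferon receptor. Isg15 read -0.19, -0.12 and -0.28 in sham, then 3.32, 2.40 and 5.17 after CaCl2, then 2.93, 3.84 and 1.06 after CaCl2 plus IgG. The sham values were nearly equal while the CaCl2 values were widely spread, all of them above sham, and the difference was 3.83 ± 0.80 (SE, adjusted p = 0.00841). Its second probe gave 4.42, with 1 of 3 sham arrays well above background. Usp18 read -1.60, -0.78 and -1.57 in sham, then 0.72, 0.08 and 2.37 after CaCl2, then 0.46, 1.06 and 0.03 after CaCl2 plus IgG. The treated arrays again lay above all sham arrays, and Usp18 was higher with CaCl2 by 2.37 ± 0.56 (adjusted p = 0.0129).

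Of the 5 IFIT and MX genes 4 were higher with CaCl2, against 17.4% of all genes. IFIT proteins bind foreign RNA, and MX proteins are dynamin-like GTPases that trap virus particles. Mx1 read -3.45, -2.67 and -3.31 in sham, then -0.33, -0.95 and 1.93 after CaCl2, then -1.13, 0.16 and -1.31 after CaCl2 plus IgG. It was higher with CaCl2 by 3.36 ± 0.71 (SE, adjusted p = 0.00869), and the C57BL/6 strain of these samples carries an Mx1 gene that makes no working protein. Mx2 was higher by 1.74 ± 0.52 (adjusted p = 0.0309), Ifit1 by 2.15 ± 0.60 (adjusted p = 0.0254) and Ifit3 by 1.50 ± 0.49 (adjusted p = 0.0433). These 3 calls were lost without any 1 of the sham arrays, and over the alternatives their adjusted p reached 0.126, 0.0768 and 0.124. Ifit3 also lost the call without CaCl2 plus IgG replicate 1 or 2. The Ifit2 difference of 0.50 ± 0.29 missed the threshold (adjusted p = 0.2).

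The oligoadenylate synthetase family makes the messenger that activates RNase L, and its OASL members are relatives that act on RNA sensing in other ways. Of 6 genes 5 were measured, and these 5 were higher with CaCl2, against 17.4% of all genes. Among them was Oas3, which had to differ by the filter. Oas1a read 0.97, 2.06 and 0.53 in sham, then 3.41, 3.28 and 4.35 after CaCl2, then 3.03, 4.06 and 2.91 after CaCl2 plus IgG. The spread within sham was wide for this gene, yet the treated arrays lay above all of it, with a difference between CaCl2 and sham of 2.49 ± 0.47 (SE, adjusted p = 0.00559). Oasl1 read -2.35, -1.05 and -2.07 in sham, then 0.56, -0.11 and 2.25 after CaCl2, then 0.14, 1.15 and -0.60 after CaCl2 plus IgG, a difference between CaCl2 and sham of 2.72 ± 0.67 (adjusted p = 0.0152; 0.0526 at most over the alternatives, with the call lost by the slide row block and without sham replicate 1 or 3). Oas3 read -5.94, -4.48 and -5.80 in sham, where 0 of 3 arrays were well above background, then -2.90, -3.39 and -1.29 after CaCl2, then -4.05, -2.50 and -4.40 after CaCl2 plus IgG. Its sham level is therefore a bound, and Oas3 was at least 3.36-fold higher with CaCl2, given here with no test. The bound is the lowest signal that was well above background or the probe's own signal, whichever was higher. Over the alternatives the fitted log2 change of Oas3 was as low as 0.44, so this fold is not a floor over them. Oas2 (1.79 ± 0.48, adjusted p = 0.0218) and Oasl2 (1.78 ± 0.51, adjusted p = 0.0276) passed as well and each lost the call without any 1 of 3 arrays, sham replicate 1 and CaCl2 replicate 3 among them (adjusted p up to 0.0745 and 0.0898 over the alternatives). Oas1g was not well above background on any of the 9 arrays and was left out of the test.

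Of the remaining 10 effectors 7 were higher with CaCl2, against 17.4% of all genes. Bst2, which encodes tetherin, a membrane protein that holds budding virus on the cell, read 0.02, -0.15 and -0.38 in sham, then 3.90, 3.63 and 4.65 after CaCl2, then 3.39, 4.47 and 1.87 after CaCl2 plus IgG. It had the largest change of the set, 4.23 ± 0.58 (SE, adjusted p = 0.00148). Rsad2, which encodes viperin, an enzyme that makes a chain-terminating nucleotide, read -2.73, -2.85 and -2.78 in sham, then -0.65, -1.39 and 1.86 after CaCl2, then -0.33, -0.41 and -1.67 after CaCl2 plus IgG. The sham values were nearly equal, but CaCl2 replicate 3 was far above replicates 1 and 2, and the difference was 2.73 ± 0.75 (adjusted p = 0.0238; up to 0.109 over the alternatives, with the call lost without any 1 of the sham arrays). Ifi44, an interferon-induced gene of unsettled function, read -3.25, -2.81 and -3.52 in sham, then -0.82, -1.54 and 0.54 after CaCl2, then -1.78, 0.13 and -1.85 after CaCl2 plus IgG, a difference between CaCl2 and sham of 2.59 ± 0.64 (adjusted p = 0.0159; 0.0548 without sham replicate 3).

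Isg20, an RNA exonuclease, was not highest on CaCl2 replicate 3. It read 1.25, 1.64 and 1.45 in sham, then 3.40, 2.40 and 2.97 after CaCl2, then 3.26, 3.30 and 2.59 after CaCl2 plus IgG. It was higher with CaCl2 by 1.47 ± 0.29 (SE, adjusted p = 0.0061). Rtp4, an antiviral protein also known as a chaperone of receptors, was higher by 2.17 ± 0.49 (adjusted p = 0.0113) and Parp14, which attaches ADP-ribose, by 1.26 ± 0.27 (adjusted p = 0.009). Xaf1, which binds the apoptosis inhibitor XIAP, was higher by 1.03 ± 0.32 (adjusted p = 0.0357) and lost the call without any 1 of 5 arrays (adjusted p up to 0.112 over the alternatives). Cmpk2, a nucleotide kinase of mitochondria (1.16 ± 0.49, adjusted p = 0.0972), Ifi35 (0.55 ± 0.25, adjusted p = 0.118) and Ifi27l2a (0.27 ± 0.49, adjusted p = 0.686) did not pass.

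**Figure D3:**
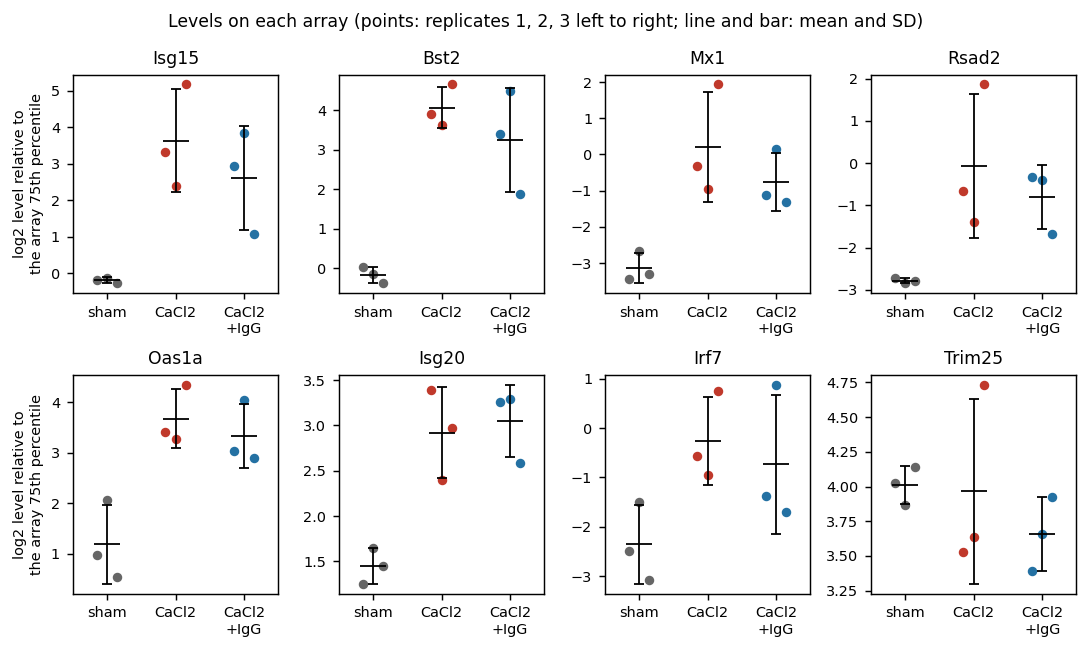
Log2 level relative to the array 75th percentile for 8 genes in each group of 3 arrays, with replicates 1, 2 and 3 as points from left to right and the mean and SD as line and bar; the vertical axes differ between genes and do not start at 0. Sham values are close together for Isg15 and Rsad2. Replicate 3 lies highest among the 3 CaCl2 arrays for 7 of the 8 genes, Isg20 being the exception.

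Of the 9 genes with a promoter match, 8 were measured and 8 of these were higher with CaCl2. Their changes were 1.08 to 4.23, with a median of 2.61. Oas3, which had to differ by the filter, is in this count and this median. Of the 15 genes without a match in the 250 bases, 8 were higher, with a median change of 1.16. Of the 9 genes not in the promoter table, 8 were higher, with a median of 1.84. Over all genes tested 17.4% were higher. These are descriptions with no test.

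Arrays with CaCl2 differed within a group more in this set than over all genes. The median SD of the 32 genes was 0.73 among the CaCl2 arrays, against 0.20 over all genes. It was 0.48 with IgG, against 0.25, and 0.26 in sham, against 0.20. CaCl2 replicate 3 was the highest of its group for 30 of 32 genes, the exceptions being Isg20 and Ifi27l2a, whereas it was the highest for 33.2% of all genes. Its levels lay a median of 1.26 above the mean of the other CaCl2 arrays over the set, against -0.03 over all genes. With IgG, replicate 2 was the highest for 29 of 32 genes, against 30.8% of all genes, and replicate 3 the lowest for 26, against 48%. The median level of the set was -0.08, -0.02 and -0.27 in sham, then 1.63, 1.41 and 2.54 after CaCl2, then 1.25, 1.92 and 1.15 after CaCl2 plus IgG.

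On CaCl2 replicate 3 other lists stood apart as well. It was the highest of the CaCl2 arrays for 16 of 17 interferon-gamma responsive genes, a median of 1.91 above the others, and for 11 of 12 markers of T and NK cells, 0.74 above. It was also the highest for 5 of 6 pan-leukocyte markers, 0.65 above, and for 7 of 10 neutrophil markers, 0.63 above. It was the lowest for 9 of 10 smooth muscle markers, -0.71 from the others. On this list CaCl2 replicate 2 stood farther apart, as the highest for 10 of 10, 0.94 above the others. Of 15 markers of monocytes and macrophages 6 were highest and 6 lowest on CaCl2 replicate 3. Ifng, which encodes interferon-gamma and is made by T and NK cells, read -5.91, -6.33 and -6.21 in sham, then -3.60, -5.08 and -0.53 after CaCl2, then -4.18, -3.32 and -4.76 after CaCl2 plus IgG. It was well above background on 0 sham arrays, 2 CaCl2 arrays and 2 arrays with IgG, so it was left out of the test, and its highest value was on CaCl2 replicate 3. The part of these lists in the spread of the set was not tested. Without CaCl2 replicate 3 the set still had 20 genes higher than sham, against 13% of all genes, with a median change of 1.34.

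**Figure D4:**
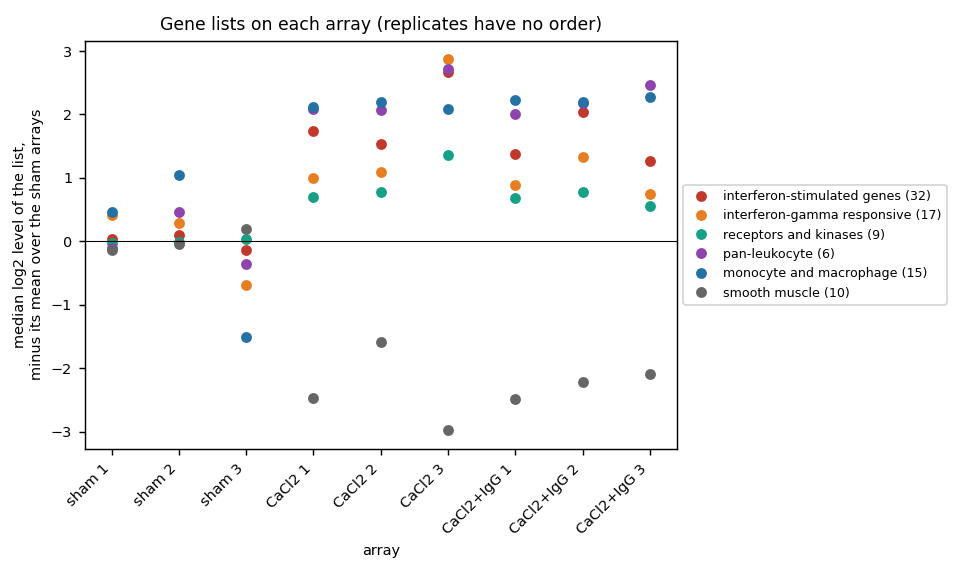
Median log2 level of 6 gene lists on each array, minus the mean of that list over the 3 sham arrays; the number of genes is in brackets. Interferon-gamma responsive genes are highest and smooth muscle markers lowest on CaCl2 replicate 3, while monocyte and macrophage markers lie close together on all 6 arrays with CaCl2.

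CaCl2 plus IgG aortas also had higher levels than sham aortas, with fewer genes past the threshold. Of the 32 genes 13 were higher, 0 were lower and 19 did not pass, against 14.7% and 14.3% of all genes. The median change was 1.34, or 1.22 without Oas3, against -0.10 over all genes. All values lay above sham for 27 genes, Oas3 among them, against 20.3% of all genes. The 13 genes were Bst2 (3.42 ± 0.58, SE, adjusted p = 0.00383), Isg15 (2.80 ± 0.80, 0.0323), Mx1, Zbp1, Oas1a, Oasl1, Ifi44, Usp18, Rtp4, Isg20, Dhx58, Ifih1 and Parp14. Among the factors of ISGF3, Stat2 (0.60 ± 0.33, adjusted p = 0.201) and Irf9 (0.31 ± 0.24, adjusted p = 0.338) did not pass, nor did Irf7 (1.62 ± 0.74, adjusted p = 0.134), whose values overlapped with sham.

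This count also depended on single arrays. It was 5, 7 and 5 without sham replicates 1, 2 and 3, against 11.8%, 11.3% and 11.1% of all genes higher. It was 8 without CaCl2 replicate 1 (13.2% of all genes), 6 without CaCl2 plus IgG replicate 1 (10.8%) and 5 without its replicate 2 (10.1%), where with all arrays 14.7% of all genes were higher. Without CaCl2 replicate 3, whose spread enters the shared error of the fit, it was 22, against 14.6% of all genes. The 5 genes that passed without each of the 9 arrays in turn were Bst2, Dhx58, Ifih1, Isg20 and Oas1a. With the slide row as a block 8 genes passed, against 13.7% of all genes. Within the second row, with 2 sham arrays and 2 with IgG, the median change was 1.34, against -0.10 over all genes. There the difference was above 0 for 31 of 32 genes, a count of signs with no test. Both comparisons with sham share the 3 sham arrays and are therefore not independent of each other.

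Replicate 3 of CaCl2 plus IgG had the lower values of its group in this set. It was below both other arrays of the group for 26 of 32 genes, below all CaCl2 arrays for 28 and above all sham arrays for 27, and lay a median of -0.64 from the mean of replicates 1 and 2, against -0.09 over all genes. Isg15 and Bst2 show it best, at 1.06 and 1.87 on this array against at least 2.93 and 3.39 on the others. Without it, 16 genes were higher than sham, against 18.4% of all genes, and the median change was 1.54. The change was then 4.10 ± 0.38 (SE) for Bst2 and 3.58 ± 0.70 for Isg15. Stat2 (0.66 ± 0.38, adjusted p = 0.202), Irf9 (0.41 ± 0.26, adjusted p = 0.247) and Irf7 (2.11 ± 0.77, adjusted p = 0.0621) again missed the threshold.

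Adding IgG to CaCl2 gave 0 of 32 genes an adjusted p under 0.05 (limma), where 0% of all genes passed. At an unadjusted p under 0.05 there were 0 of the 32 genes and 241 of all genes. The difference was below 0 for 31 of 32 genes, Isg20 being the exception at 0.13 (-0.10 with median scaling and -0.13 without CaCl2 replicate 2), against 54.1% of all genes, with a median of -0.45 against -0.02. The intervals were wide. The difference for Isg15 was -1.02, with a 95% interval from -2.86 to 0.82, that for Bst2 was -0.82 (-2.14 to 0.51), and that for Mx1 was -0.97 (-2.60 to 0.65). For Ifih1 it was -0.24, with the narrower interval of -0.79 to 0.30. Over the 32 genes the intervals reached from -2.86 to 1.22, and failing the test does not show that the groups were alike.

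The direction of that difference rested on CaCl2 replicate 3. Without it, 17 of 32 genes were above 0 and 15 below, with a median of 0.01, while 54.6% of all genes were below 0. Without CaCl2 plus IgG replicate 3, 30 genes were below 0 with a median of -0.25, 48.3% of all genes were below 0, and 0 genes passed, again 0% of all genes. The difference was then -0.25 for Isg15, -0.13 for Bst2, -0.70 for Mx1 and -0.13 for Ifih1. Without both arrays, a setting chosen after these values were seen, 27 genes were above 0 and 5 below with a median of 0.19, against 49.4% of all genes below 0. In that setting 0 genes passed between CaCl2 plus IgG and CaCl2, and 27 of the 32 differed from sham with CaCl2 plus IgG, 26 of them higher, against 18.8% of all genes higher.

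**Figure D5:**
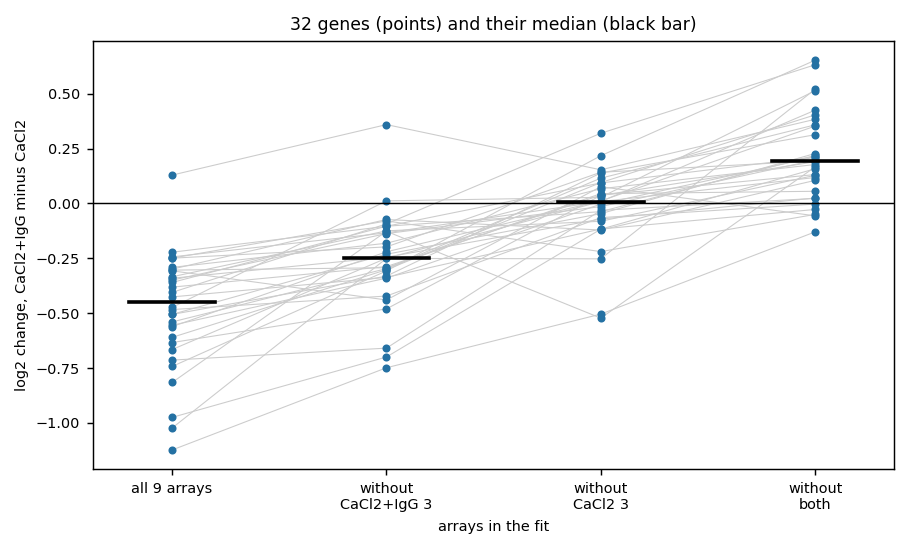
Log2 difference between CaCl2 plus IgG and CaCl2 for each of the 32 genes (points, joined by grey lines) and their median (black bars), from fits with all 9 arrays, without replicate 3 of CaCl2 plus IgG, without replicate 3 of CaCl2, and without both. The median is -0.45, -0.25, 0.01 and 0.19.

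The ligands of the pathway were mostly not measurable. Of 18 type I interferon genes 14 had a probe and 5 were measured. Ifnb1, the interferon-beta gene, was not well above background on any of the 9 arrays. With CaCl2, 0 of the 5 measured genes were higher and 4 were lower, against 17.4% and 19% of all genes. The 4 were Ifna12 (-1.78 ± 0.55, SE, adjusted p = 0.036), Ifna5, Ifna1 and Ifna14. Probes at background also read lower on these arrays, whose 75th percentile was higher: Ifna4, not above background on any array, read -6.51, -6.38 and -6.31 in sham and -7.45, -7.31 and -7.11 after CaCl2. The part of this in the lower values was not tested. With median scaling 2 were lower, against 6.54% of all genes, and without sham replicate 3 there was 1. Genes of the interferon-alpha family are near-identical in sequence, so their probes may not tell them apart.

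Receptors and their kinases were higher with CaCl2 in 7 of 9 genes, with 0 lower, against 17.4% and 19% of all genes. Their median change was 0.94. Ifnar1 was higher by 1.17 ± 0.13 (SE, adjusted p = 0.000727) and Ifnar2, the chain that binds interferon most tightly, by 0.75 ± 0.19 (adjusted p = 0.0189). The kinases Jak1 (1.01 ± 0.19, adjusted p = 0.00554) and Tyk2 (2.21 ± 0.44, adjusted p = 0.00696) were higher too, as was Il10rb (1.15 ± 0.21), a receptor chain of interferon-lambda. Ifnar1 read 0.56, 0.69 and 0.71 in sham, then 1.81, 1.72 and 1.94 after CaCl2, then 1.73, 1.86 and 1.61 after CaCl2 plus IgG, with values close together within each group and no overlap with sham. Of 7 other STAT and IRF factors 2 were higher, against 17.4% of all genes: Irf5 (2.90 ± 0.34) and Irf8 (2.84 ± 0.38), both factors of myeloid cells.

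In the pathways that induce interferon, 6 of 17 genes were higher with CaCl2 and 0 lower, against 17.4% and 19% of all genes. Without Aim2, which passed the filter only through the groups where it was high, 5 of 16 were higher. Among the 6 were the DNA sensors Aim2, not well above background on the sham arrays and at least 1.78-fold higher, and Ifi204 (2.04 ± 0.33). The adaptor Sting1 (2.24 ± 0.28) and the double-stranded RNA receptor Tlr3 (1.21 ± 0.26) were among them too. Of 10 feedback inhibitors 3 were higher, Socs3 (4.56 ± 0.77), Ptpn6 (2.60 ± 0.40) and Socs1 (1.94 ± 0.46), and 2 were lower, Ptpn11 (-0.55 ± 0.11) and Pias1 (-0.38 ± 0.12), against 17.4% and 19% of all genes. With median scaling 0 of these inhibitors were lower, against 6.54% of all genes. Of 44 further interferon-stimulated genes 23 were higher and 0 lower, against 17.4% and 19% of all genes, with a median change of 0.90. Among the 23 were Tap1 (2.22 ± 0.61), Slfn8, Slfn2 and Slfn1, the last not well above background in sham and at least 1.42-fold higher. Over the 42 genes measured in both groups, 22 were higher. Without sham replicate 3 or without CaCl2 replicate 3 that count was 13, against 13.1% and 13% of all genes. Of 17 genes chosen for their response to interferon-gamma, 3 were higher, Cxcl10 (4.70 ± 1.35), Ifi47 (1.93 ± 0.60) and Gbp6 (1.30 ± 0.37), and 2 lower, Ciita and Cxcl11, against 17.4% and 19% of all genes. With median scaling 9 were higher and 1 lower, against 22.2% and 6.54% of all genes. Without CaCl2 replicate 3, 0 were higher, against 13%.

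Many markers of leukocytes were higher with CaCl2, as the set was. In whole tissue a change in the number of cells of a type and a change in RNA per cell cannot be told apart. All 6 pan-leukocyte markers were higher with CaCl2, with a median change of 2.88, and all 6 with CaCl2 plus IgG, with 2.77 (2.74 without replicate 3). The counts of this and the following lists stand against 17.4% of all genes higher and 19% lower with CaCl2. With CaCl2 plus IgG these shares were 14.7% and 14.3%. Their summed log2 level was 3.20 to 4.55 in sham, 6.40 to 7.31 with CaCl2 and 6.42 to 6.81 with CaCl2 plus IgG, with no overlap with sham. Of 15 monocyte and macrophage markers 11 were higher and 2 lower with CaCl2, with a summed level of 7.93 to 8.05 in sham and 8.55 to 8.62 with CaCl2. Of 12 T and NK cell markers 9 were higher and 1 lower, or 5 and 1 of the 8 measured in both groups, with a summed level of 3.81 to 4.04 in sham and 5.10 to 5.81 with CaCl2. Of 10 neutrophil markers 4 were higher, or 2 of the 7 measured in both groups. Their summed level was lower with CaCl2, at 7.12 to 7.34 against 7.76 to 8.13 in sham. Their median level was higher, at -1.49 to -0.38 against -4.16 to -2.75, since a sum of signals is set mostly by the brightest genes. All 10 smooth muscle markers were lower in both comparisons with sham. Plasmacytoid dendritic cells are the main makers of type I interferon in infection, and of 9 of their markers 5 were higher and 2, Siglech and Pacsin1, were lower with CaCl2 (3 and 2 of the 7 measured in both groups). The summed level of these 9 was 7.76 to 8.17 in sham and 7.18 to 7.25 with CaCl2. Their median level was -0.15 to 0.11 in sham and 0.31 to 1.55 with CaCl2. Ly6d, among those higher, is also a marker of early B cells. Markers of B and plasma cells, in mice that lack mature B cells, were higher in 5 of 9 genes with CaCl2, or 3 of the 7 measured in both groups, with a summed level of 2.70 to 3.00 in sham and 4.71 to 5.25 with CaCl2. Replicate 3 of CaCl2 plus IgG, lowest of its group for 26 of 32 genes of the set, did not order these lists alike. It was highest for 4 of 6 pan-leukocyte, 6 of 9 B and plasma cell and 6 of 10 neutrophil markers (lowest for 1, 3 and 1). Over all genes it was highest for 34%. Of 12 T and NK cell markers 5 were highest and 4 lowest on it, and of 15 monocyte and macrophage markers 5 and 4. The part of these cells in the levels of the interferon-stimulated genes was not tested.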

How the data were processed

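Total RNA from 9 abdominal aortas was labelled with Cy3 and hybridised to 1-colour Agilent arrays. Per the labels, RNA was extracted with TRIzol and 2 different purification kits are named, so which was used is not settled. The deposited scanner files hold spot intensity; per the file headers, Feature Extraction 10.7.1.1 subtracted background and removed spatial trends, while the submitters' processing notes name version 9.5.1.1. The authors' deposited series table, also intensity, shares 1 distribution over its columns; the sources used here do not state its steps.

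From log2 of the processed signal the array's 75th percentile was subtracted; outlier spots were left out and spots of a probe averaged. Probes were named by accession (27235), symbol (4146) or file name (1431) against RefSeq GRCm38.p6. A probe was kept if any group had it well above background on every array, and the brightest kept probe stood for its gene. Limma 3.58.1 in R 4.3.3 was fitted to 3 groups on 9 arrays (files were read with data.table, version 1.17.8), with Benjamini-Hochberg adjustment over 16444 genes and a threshold of 0.05. In fits without an array the genes and probes stayed as chosen over all 9. A gene counts as measured in both groups if well above background on at least 1 array of each, a count added after seeing the data. The script was tested on simulated data. Columns not mapped to a sample numbered 0.

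All 33 genes are named. Values on every array are given for Isg15, Usp18, Irf7, Irf9, Stat2, Ifih1, Ddx58, Adar, the 8 other genes with the largest called changes, and any gene with a change below 0; other lists are given by counts with up to 4 called genes. A gene of the pathway that this rule names is not reported here. The members and lists were chosen with earlier results of these data known. Isg20, Ifng, Ifnar1, Ifna4, Pias1 and Cxcl11 were added after their values were seen. Alternatives covered scaling, source of values, background, probe filter, choice of probe, slide row, replicate number, samples in the fit and single arrays.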

Additional observations from a re-analysis of the deposited data

How the results depend on the processing

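The median change between CaCl2 and sham was 2.23 with median scaling and 1.31 with normexp background, and 13 genes passed with the slide row as a block; without 1 array 12 to 25 passed. Quantile normalization and the deposited series table both gave 24. Between CaCl2 plus IgG and sham, 6 passed with no filter on dim probes (16.5% of all genes, either way) and 8 with the slide row as a block (26%). Without replicate 3 of both CaCl2 groups 27 passed (41.6%), and without 1 array 5 to 22. Without CaCl2 plus IgG replicate 3, median scaling gave 27 genes and a median of 2.01. In that setting 7795 of all 16444 genes passed, either way, and the median over all genes was 0.40. Between CaCl2 plus IgG and CaCl2 the median ran from -0.72 to 0.01 without 1 array and was 0.19 without replicate 3 of both CaCl2 groups. Whether replicate numbers pair the samples is not known. Deviations of same-numbered arrays correlated at -0.20 to 0.22 and those of different-numbered arrays at -0.24 to 0.21. With so few arrays these values cannot settle it. With the replicate number as a block, 21, 5 and 0 genes passed in the 3 comparisons, against 35%, 28.3% and 0% of all genes, either way.

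Signs turned for Trim25 between CaCl2 and sham (0.43 with median scaling, 0.016 with normexp, 0.66 with the mean of its probes, 0.025 with the slide row, -0.43 to 0.17 without 1 array) and between CaCl2 plus IgG and sham (0.35 with the mean of its probes). Between CaCl2 plus IgG and CaCl2, values without 1 array ran from -1.03 to 0.12 for Usp18, -1.28 to 0.028 for Irf7, -0.39 to 0.0085 for Ifih1, -0.43 to 0.093 for Adar, -1.41 to 0.22 for Rsad2, -1.17 to 0.0085 for Oasl1, -0.83 to 0.32 for Zbp1, -1.21 to 0.011 for Ifi44 and -0.52 to 0.076 for Trim25, and from -0.13 to 0.37 for Isg20, which was -0.10 with median scaling. The causes were not tested. Leaving out both replicates 3, and rescaling the fit without CaCl2 plus IgG replicate 3, were chosen after seeing the data. A promoter window of 300 bases took in the 250 before the annotated start and the rest after it. It held a match in 12 of the 24 genes, against 3.99% of all. The number of arrays, and for Oas3 and the ligands a signal near background, limit these results.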
